A study of Mus musculus with 6 samples.

Results

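The genes described here are 10 genes of iron export, import, storage and sensing: Slc40a1, Heph, Tfrc, Slc11a2, Steap3, Steap4, Fth1, Ftl1, Aco1 and Ireb2. They were chosen by gene symbol, and all 10 of the 10 symbols were found among the 46603 genes counted in each library. RNA was measured in cells of the enamel organ, the epithelial tissue that holds the ameloblasts, taken directly from the lower incisors of C57BL/6 mice. The groups were 3 libraries from mice labelled Stim1/2 Knock out (DKO, replicates 1, 3 and 4) and 3 libraries from mice labelled Wild Type (WT, replicates 1, 2 and 3). The labels give no age, Cre line or promoter for the knockout, and they do not say whether each library came from its own animal, so p-values measure the spread between these libraries only.

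Iron enters most cells as transferrin bound to the transferrin receptor and is released into the cytosol after reduction by a STEAP enzyme and passage through the transporter DMT1. What is not used is held in ferritin, a cage of heavy and light chains, or leaves the cell through ferroportin, the one known cellular iron exporter of mammals. The RNA-binding proteins IRP1 and IRP2 sense cytosolic iron and bind a hairpin called the iron-responsive element. Binding in a 5′ untranslated region blocks translation, and binding in the 3′ untranslated region of Tfrc protects the mRNA. Rodent incisors are a special case of iron handling, because maturation-stage ameloblasts load ferritin with iron and pass it into the outer enamel, which turns orange-brown.

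The iron-responsive elements are shown because they tie the binding proteins among these genes (Aco1 and Ireb2) to the transcripts they bind. Each line gives a window of 30 bases, 5′ to 3′, from GENCODE vM21 transcripts on GRCm38. The capitals mark the bulged C and the loop of 6 bases. The 5 lower-case bases between them and the first 5 after the loop are the sides of the upper stem. The other lower-case bases are flanks that were not checked for pairing.
Slc40a1, 5′ untranslated region, chr1:45925464-45925493, minus strand: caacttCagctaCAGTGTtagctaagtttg
Fth1, 5′ untranslated region, chr19:9982732-9982761, plus strand: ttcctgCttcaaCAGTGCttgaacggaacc
Ftl1, 5′ untranslated region, chr7:45459778-45459807, minus strand: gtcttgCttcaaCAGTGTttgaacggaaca
Tfrc, 3′ untranslated region, chr16:32631219-32631248, plus strand: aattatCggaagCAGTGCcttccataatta
Tfrc, 3′ untranslated region, chr16:32631598-32631627, plus strand: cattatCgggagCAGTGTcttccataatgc
Tfrc, 3′ untranslated region, chr16:32631663-32631692, plus strand: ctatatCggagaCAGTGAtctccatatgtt
Tfrc, 3′ untranslated region, chr16:32631710-32631739, plus strand: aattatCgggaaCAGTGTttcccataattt
Slc11a2, 3′ untranslated region, chr15:100395152-100395181, minus strand: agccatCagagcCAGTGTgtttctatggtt
The pattern searched was a C, any 5 bases and the loop CAGTGN, followed by 5 bases of which at least 4 pair with the 5 bases before the loop, on the strand of the RNA. It was found in 5 of the 10 genes. Over all protein-coding genes, 0.88% of those with a 5′ untranslated region of at least 30 bases held a match there, and 4.12% of those with such a 3′ untranslated region. These regions differ in length between genes, and a match is a description of sequence, not a measured binding site. The 4 Tfrc matches and those of Slc40a1, Fth1 and Ftl1 have all 5 stem pairs, and that of Slc11a2 has 4.

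Total counts ran from 18609759 to 22829411 per library. Stim1 averaged 125 ± 18.1 CPM in DKO and 422 ± 65.1 CPM in WT, and Stim2 122 ± 15.8 CPM in DKO and 261 ± 42.6 CPM in WT (SD, n = 3 each). CPM are counts per 1e6, scaled by the TMM method. Xist, made from the inactive X chromosome of females, was at 488 CPM in DKO 1, 810 CPM in WT 1 and 913 CPM in WT 2 and at most 1.22 CPM in the other 3 libraries, so both groups mixed the sexes unequally. DKO was compared with WT by edgeR's quasi-likelihood test over 14721 genes, and a gene is called at a Benjamini-Hochberg adjusted p below 0.05. Of the 10 iron genes 0 were called, where 1.04% of all tested genes were, 0.734% higher and 0.306% lower in DKO. At an unadjusted p below 0.05 the edgeR count was 4 of 10 (Slc40a1, Heph, Steap3 and Steap4), against 18.0% of all tested genes. The DESeq2 Wald test called 1 of the 10, Slc40a1, against 5.52% of all genes it gave an adjusted p, and limma on log2(FPKM + 1) called 0, against 0.577% of all genes in that fit.

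The iron exporter gene Slc40a1, which encodes ferroportin, showed the largest difference of the 10 genes. Slc40a1 (ENSMUSG00000025993) spans chr1:45908068-45926523 on the minus strand of GRCm38. It stood at 27.2, 10.8 and 35.7 CPM in DKO 1, 3 and 4, against 1813, 97.5 and 2631 CPM in WT 1, 2 and 3. All 3 DKO libraries lay below all 3 WT libraries, and WT 2 lay far below the other WT libraries and closer to DKO than to them. The mean was 24.6 ± 12.7 CPM in DKO and 1514 ± 1293 CPM in WT (SD, n = 3 each), 61.6-fold lower in DKO. In raw counts these were 542, 212 and 668 in the DKO libraries, against 42748, 2012 and 60356 in the WT libraries, so no library rested on a handful of reads.

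The log2 fold change of Slc40a1 was -5.95 (SE 1.15), and it missed the threshold in edgeR (adjusted p = 0.0622). The exact two-sided permutation p was 0.1, the smallest that 3 against 3 libraries allow. Without WT 2 the log2 fold change was -6.50 and the gene was called (edgeR adjusted p = 0.00267), in a fit that called 2.23% of its genes. WT 2 was singled out because Slc40a1 is low in it, so a stronger result without it is no separate support. The same limit holds below for other genes with WT 2 as the lowest WT library. Slc40a1 was also called without a filter on low counts (edgeR adjusted p = 0.00198, in a fit that called 2.19% of its genes) and by the DESeq2 Wald test (adjusted p = 2.92e-05). Leaving out any library other than WT 2 gave an edgeR adjusted p between 0.106 and 0.203, with a log2 fold change between -6.31 and -5.27.

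**Figure D1:**
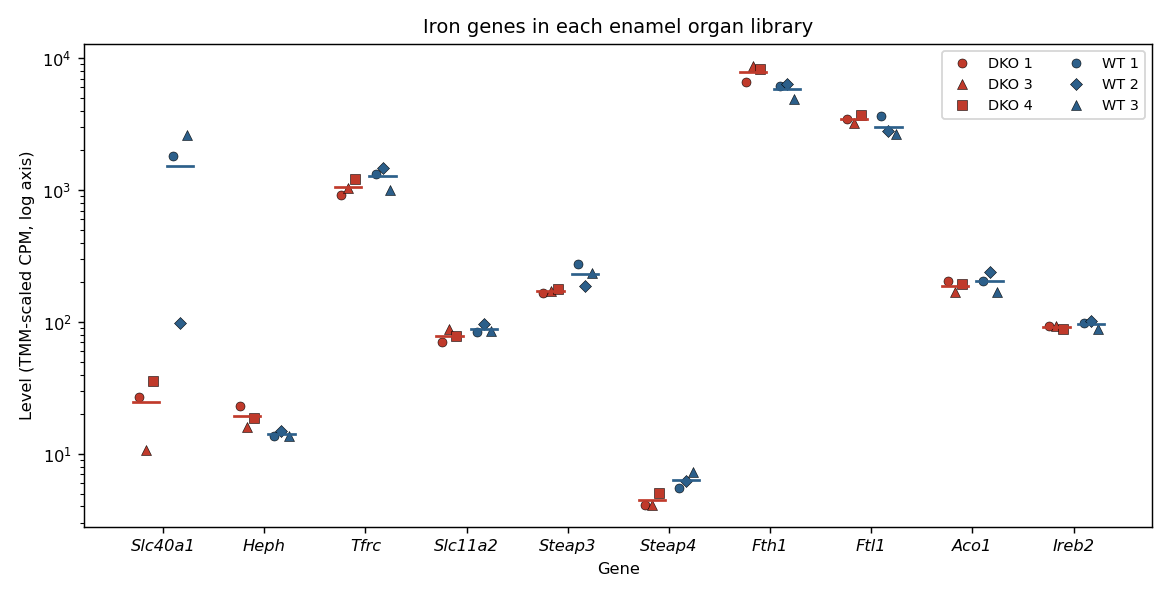
Level of each of the 10 iron genes in every library, in TMM-scaled CPM on a log axis, with DKO libraries (red) left of WT libraries (blue) and a bar at each group mean. Slc40a1 is the gene whose groups stand far apart, with WT 2 at 97.5 CPM between the DKO libraries and the other WT libraries.

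Few genes differed between the WT libraries as much as Slc40a1. The highest WT library exceeded the lowest 27.0-fold, a ratio reached by 18 of 12146 genes with a mean of at least 50 counts, Slc40a1 included. WT 2 was 18.6-fold below WT 1 and 27.0-fold below WT 3, and it was 2.73-fold above the highest DKO library. Among the same 12146 genes, 27 were at least 4-fold lower in WT 2 than in both other WT libraries, and in 13 of these every DKO library was at least 4-fold below WT 1 and WT 3 as well. The counterpart of the 27 was 14 genes for WT 1 and 9 genes for WT 3. A ratio of means between WT and DKO as large as that of Slc40a1 was held by 2 of the 12146 genes, Slc40a1 included. In FPKM, with the Cufflinks confidence bounds deposited beside each value, WT 2 had 35.9 (32.1 to 39.8), clear of the highest DKO library at 11.4 (9.08 to 13.8).

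By Pearson correlation of log2(CPM + 1) over the 6 libraries, the 5 genes with the pattern most like that of Slc40a1 were Tgm3 (r = 0.999), Pam (0.995), Ptpn22 (0.994), Wnt7b (0.994) and Dynap (0.994), out of 12144 genes compared. These are descriptions over 6 points that share their libraries and fall into the 2 groups. Tgm3, a transglutaminase of cornifying epithelia, had 2.91, 0.611 and 2.89 CPM in DKO 1, 3 and 4, against 85.0, 7.56 and 136 CPM in WT 1, 2 and 3. Pam, which amidates the ends of peptide hormones, had 162, 116 and 145 CPM in the DKO libraries, against 636, 223 and 645 CPM in the WT libraries. The 5 genes were picked for their likeness to Slc40a1, and in each of them WT 2 was the lowest WT library and still above every DKO library. Only Dynap was called among the 5 (edgeR adjusted p = 0.0432).

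**Figure D2:**
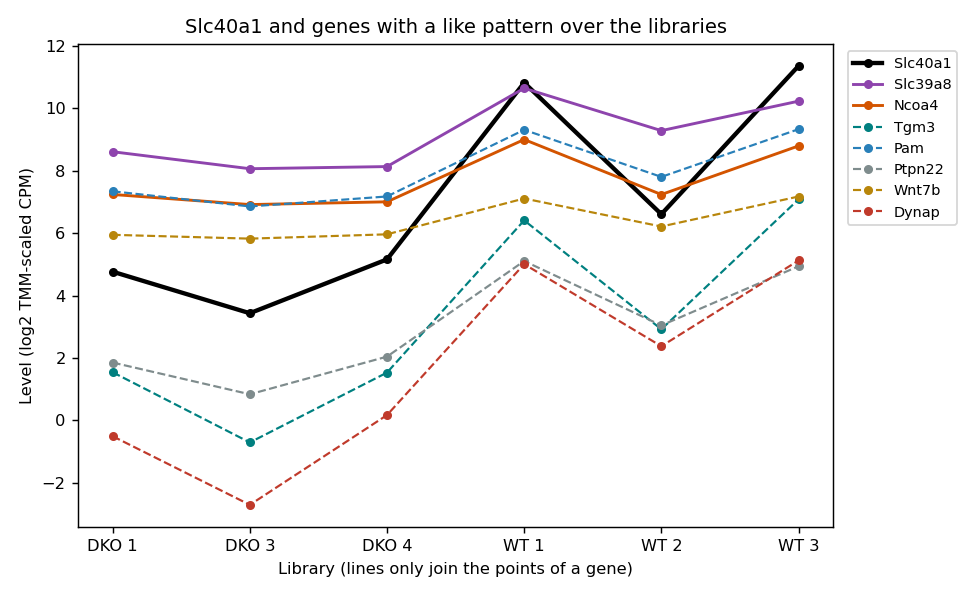
Level (log2 TMM-scaled CPM) of Slc40a1, of the iron genes Slc39a8 and Ncoa4, and of the 5 genes with the most similar pattern (dashed), in the 3 DKO and then the 3 WT libraries. Every gene is high in WT 1 and WT 3 and lower in WT 2.

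Ferroportin is made in quantity by macrophages that recycle red cells, so markers of other cells were read beside it. Macrophage and leukocyte markers summed to between 327 and 490 CPM in DKO and between 224 and 326 CPM in WT, and 11 of the 12 tested had a log2 fold change above 0. Among the WT libraries this sum was 297 CPM in WT 1, 224 CPM in WT 2 and 326 CPM in WT 3, the lowest being the library low in Slc40a1. The lowest markers of this list were Timd4 and Vsig4, at most 0.0848 CPM in any library, and Cd163, at most 1.66 CPM. Other macrophage markers stood higher, such as Csf1r (from 18.2 CPM in WT 2 to 33.0 CPM in DKO 4) and C1qb (from 18.5 CPM in WT 2 to 39.1 CPM in DKO 4). The highest were Lyz2 (from 45.0 CPM in WT 1 to 155 CPM in DKO 4) and Cd74 (from 78.7 CPM in WT 2 to 138 CPM in DKO 1). Cd68 and Cd14 were lowest in WT 3, at 16.9 and 1.48 CPM. Apart from Lyz2, Cd68 and Cd14, every tested marker of this list was lowest in WT 2. Erythroid markers summed to between 134 and 392 CPM in DKO and between 140.5 and 435 CPM in WT, and neutrophil markers to between 10.4 and 22.8 CPM in DKO and between 2.46 and 79.1 CPM in WT, with overlap in both cases. All 6 tested erythroid and all 7 tested neutrophil markers had a log2 fold change below 0, and 0 of them were called. In osteoclast, endothelium, skeletal muscle and mesenchyme markers 0 genes were called, with sums that overlapped between the groups except for endothelium (254 to 275 CPM in DKO, 173 to 230.1 CPM in WT). All 7 endothelium and all 6 mesenchyme markers had a log2 fold change above 0, like most of the macrophage and leukocyte markers. The same held for 2 of 3 tested osteoclast and 2 of 6 skeletal muscle markers. WT 2 was the lowest WT library in the endothelium (173 CPM), mesenchyme (6634 CPM) and osteoclast (66.3 CPM) sums too, so this was not particular to the macrophage markers. In the erythroid, neutrophil and skeletal muscle sums WT 1 was the lowest WT library. The 6 oral keratinocyte markers summed to between 86.8 and 130 CPM in DKO and between 259 and 454 CPM in WT, with WT 2 the lowest WT library. Krt6a, a keratin of stressed and oral epithelium, was the one of them called, with 109, 60.6 and 85.6 CPM in DKO 1, 3 and 4, against 418, 230.1 and 336 CPM in WT 1, 2 and 3 (edgeR adjusted p = 0.0216). Krt6a made up most of that sum. Of the 6 markers 5 had a log2 fold change below 0, with a median of -2.08. Krt6b had 5.87, 1.63 and 3.48 CPM in DKO 1, 3 and 4, against 21.9, 5.82 and 22.8 CPM in WT 1, 2 and 3. It was not called (edgeR adjusted p = 0.124). Krt13, Krt4 and Lor, at 0.339, 0.764 and 0.806 CPM, were lower in WT 1 than in WT 2. Krt76 had WT 2 as the lowest WT library but a log2 fold change of 0.30, so not every marker of the list followed Slc40a1 over the libraries. The part of these cell types in the Slc40a1 result was not tested. In whole tissue, fewer cells of a type and less RNA per cell cannot be told apart.

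The labelled tissue was checked by its ameloblast markers. The 8 maturation-stage markers summed to between 22699 and 27129 CPM in DKO and between 20912 and 28002 CPM in WT, and the 6 secretory-stage markers to between 116627 and 181277 CPM in DKO and between 70039.6 and 139411 CPM in WT. Odam and Amtn made up most of the maturation-stage sum, with log2 fold changes of -0.47 and 0.78. Neither was called (edgeR adjusted p = 0.294 and 0.146), but in each the groups did not overlap. Their opposite directions offset each other in the sum, so its overlap between the groups hides differences of single markers. Within the maturation-stage list 4 genes had a log2 fold change above 0 and 4 below, and 1 was called, Car6, higher in DKO. Of the 4 below 0, 3 had WT 2 as the lowest WT library and above every DKO library (Slc26a4, Gm17660 and Wdr72, named after their values were seen). In Odam, the other gene below 0, WT 3 was the lowest WT library, at 13209 CPM, with WT 2 at 13433 CPM. Of the 4 above 0, Klk4, Amtn and Slc24a4 had WT 2 as the highest WT library, at 979, 8389 and 1054 CPM. For Klk4 this stood against 681 CPM in WT 1 and 746 CPM in WT 3. In Car6 WT 2 lay between the other WT libraries, so the list as a whole did not follow Slc40a1. Wdr72, needed for enamel maturation, had 180.3, 159 and 205 CPM in DKO 1, 3 and 4, against 324, 208 and 249 CPM in WT 1, 2 and 3 (edgeR adjusted p = 0.177). Slc26a4, the anion exchanger pendrin, had 1.66, 0.815 and 2.03 CPM in DKO 1, 3 and 4, against 17.4, 2.42 and 32.6 CPM in WT 1, 2 and 3 (edgeR adjusted p = 0.101). Gm17660 had 120, 55.7 and 61.8 CPM in the DKO libraries, against 601, 174 and 380 CPM in the WT libraries (edgeR adjusted p = 0.0711). The part of ameloblast stage in the Slc40a1 result was not tested.

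Heph encodes hephaestin, the copper oxidase that converts the exported iron so that transferrin can carry it. Heph (ENSMUSG00000031209) spans chrX:96455359-96574485 on the plus strand of GRCm38. It had 23.3, 15.9 and 18.9 CPM in DKO 1, 3 and 4, against 13.7, 15.0 and 13.6 CPM in WT 1, 2 and 3. The groups did not overlap, and Heph lay on the opposite side from its partner Slc40a1. Its log2 fold change of 0.46 (SE 0.15) was not called (edgeR adjusted p = 0.175). It lies on the X chromosome and its highest library was DKO 1, the DKO library with Xist. Without DKO 1 the log2 fold change was 0.31, and once Xist status was a covariate it was 0.53 (edgeR adjusted p = 0.151).

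Among the import genes, the transferrin receptor gene Tfrc had 924, 1041 and 1205 CPM in DKO 1, 3 and 4, against 1320, 1483 and 1004 CPM in WT 1, 2 and 3. The groups overlapped, since WT 3 lay below DKO 3 and DKO 4. Tfrc (ENSMUSG00000022797) spans chr16:32608920-32632794 on the plus strand of GRCm38. The log2 fold change was -0.26 (SE 0.17; edgeR gave an adjusted p of 0.472). WT 2, the WT library low in Slc40a1, had the highest Tfrc, and WT 3, the highest in Slc40a1, had the lowest Tfrc of the WT libraries. This opposite order did not extend to DKO, where DKO 4 was the highest library in both genes. The mean of Tfrc was 1057 CPM in DKO, the group low in Slc40a1, and 1269 CPM in WT.

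Slc11a2 encodes DMT1, which moves ferrous iron across the membrane. Slc11a2 (ENSMUSG00000023030) spans chr15:100387898-100425072 on the minus strand of GRCm38. It stood at 70.5, 87.7 and 78.6 CPM in the DKO libraries, against 83.7, 97.3 and 85.6 CPM in the WT libraries. These ranges overlapped, and the log2 fold change of -0.17 (SE 0.10) was not called (edgeR adjusted p = 0.415).

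Steap3 encodes the ferric reductase that acts with the transferrin receptor in endosomes. Steap3 (ENSMUSG00000026389) spans chr1:120190757-120272705 on the minus strand of GRCm38. It had 166, 171 and 179 CPM in DKO 1, 3 and 4, against 277, 187 and 234 CPM in WT 1, 2 and 3. The DKO libraries lay close together and below all WT libraries, and WT 2 was again the lowest WT library, at a level near DKO. The log2 fold change was -0.44 (SE 0.14; edgeR gave an adjusted p of 0.169). Without WT 2 it was -0.57 and Steap3 was called (edgeR adjusted p = 0.0428), and without any other library the adjusted p was from 0.268 to 0.363.

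Steap4, a related metalloreductase known in mouse from fat and inflamed tissue, had the lowest level of the 10 genes in FPKM. Steap4 (ENSMUSG00000012428) spans chr5:7960457-7982213 on the plus strand of GRCm38. It stood at 4.11, 4.13 and 5.08 CPM in the DKO libraries, against 5.56, 6.25 and 7.32 CPM in the WT libraries, from 81 to 95 counts in DKO and from 129 to 168 counts in WT. All DKO libraries lay below all WT libraries. The log2 fold change of -0.52 (SE 0.18) was not called (edgeR adjusted p = 0.189).

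In FPKM the ferritin genes were the most abundant of the 10 genes in every library. Fth1, the heavy chain that oxidises iron for storage, had 6542, 8730 and 8269 CPM in DKO 1, 3 and 4, against 6194, 6385 and 4879 CPM in WT 1, 2 and 3. Every DKO library lay above every WT library, by a margin of DKO 1 over WT 2 that is small beside the spread within each group. Fth1 (ENSMUSG00000024661) spans chr19:9982703-9985092 on the plus strand of GRCm38. The mean was 7847 ± 1153 CPM in DKO and 5819 ± 820 CPM in WT (SD, n = 3 each), and the log2 fold change of 0.43 (SE 0.19) was not called (edgeR adjusted p = 0.277). Ftl1, the light chain that helps form the iron core, had 3434, 3222 and 3702 CPM in the DKO libraries, against 3636, 2782 and 2677 CPM in the WT libraries. Ftl1 (ENSMUSG00000050708) spans chr7:45457944-45459884 on the minus strand of GRCm38. Its groups overlapped, because WT 1 lay above DKO 1 and DKO 3, and the log2 fold change was 0.19 (SE 0.16; edgeR gave an adjusted p of 0.587).

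The ratio of Fth1 to Ftl1 in FPKM was 1.39, 1.95 and 1.63 in DKO 1, 3 and 4, against 1.24, 1.67 and 1.32 in WT 1, 2 and 3. These overlapped, with means of 1.66 ± 0.281 in DKO and 1.41 ± 0.223 in WT (SD, n = 3 each). Both ferritin genes have near-identical copies in the genome. The expressed Ftl1 retrogene Gm10116 held 12.2, 8.76 and 14.2 CPM in the DKO libraries, against 9.59, 7.51 and 7.06 CPM in the WT libraries, and the 4 other copies among the counted genes at most 0.523 CPM. How the counting divided reads between a ferritin gene and its copies is uncertain, but the copies hold few counts beside the parent genes. The deposited FPKM gave Gm10116 more weight, at 160.1 FPKM in DKO and 129 FPKM in WT on average.

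Of the iron sensors, Aco1 encodes IRP1, which is an enzyme when it carries an iron-sulphur cluster and an RNA-binding protein when it does not. Aco1 (ENSMUSG00000028405) spans chr4:40143081-40198338 on the plus strand of GRCm38. It had 205, 168 and 194 CPM in DKO 1, 3 and 4, against 204, 239 and 169 CPM in WT 1, 2 and 3, and the groups overlapped. The log2 fold change was -0.11 (SE 0.14; edgeR gave an adjusted p of 0.724). Ireb2 encodes IRP2, which is degraded when iron is plentiful. Ireb2 (ENSMUSG00000032293) spans chr9:54863755-54912534 on the plus strand of GRCm38. It stood at 93.2, 93.9 and 87.9 CPM in the DKO libraries, against 97.4, 102 and 88.6 CPM in the WT libraries, with overlap, and the log2 fold change was -0.07 (SE 0.07; edgeR gave an adjusted p of 0.686). The direction of Aco1 turned without WT 2, at 0.019. Both proteins are regulated after transcription, so mRNA levels do not measure their activity.

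**Figure D3:**
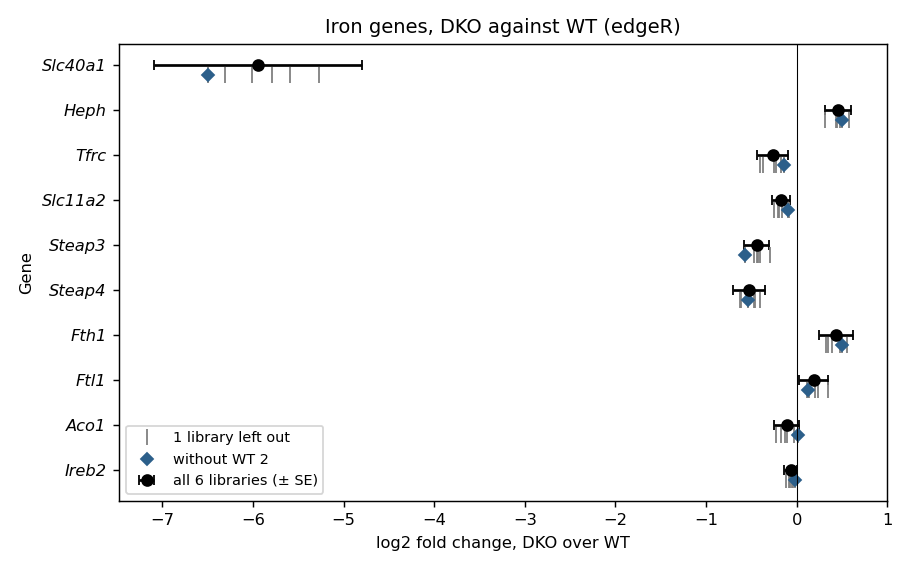
log2 fold change of each iron gene, DKO over WT, from edgeR, with its SE over all 6 libraries (black), with each library left out in turn (grey ticks) and without WT 2 (blue diamonds). Slc40a1 lies between -6.50 and -5.27 whichever library is left out, and the other 9 genes lie between -0.63 and 0.58.

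Together, 5 of the 10 genes had groups that did not overlap, 2 with DKO higher (Heph and Fth1) and 3 with DKO lower (Slc40a1, Steap3 and Steap4). Over all tested genes 23.3% had groups that did not overlap, 11.4% with DKO higher and 11.8% with DKO lower. Of the 10 genes 3 had a log2 fold change above 0 and 7 below, where 51.3% of all tested genes were below 0, and the median was -0.14, where the median over all tested genes was -0.01.

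On the per-length scale, FPKM (fragments per kilobase of transcript and 1e6 fragments), the order of the genes was the same in both groups but for Slc40a1. Fth1 led with 10365 ± 1281 FPKM in DKO and 7719 ± 1029 FPKM in WT, and Ftl1 followed with 6294 ± 534 FPKM in DKO and 5530 ± 957 FPKM in WT (SD, n = 3 each). Libraries of these 2 genes overlapped in WT and not in DKO. Tfrc averaged 204 FPKM in DKO and 247 FPKM in WT, Steap3 59.7 FPKM in DKO and 81.5 FPKM in WT, and Aco1 46.8 FPKM in DKO and 50.4 FPKM in WT. Slc11a2 averaged 25.8 FPKM in DKO and 28.9 FPKM in WT, and Ireb2 14.7 FPKM in DKO and 15.4 FPKM in WT, with no overlap between neighbours from Tfrc down to Ireb2 in either group.

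Slc40a1 was eighth in DKO, at 8.19 ± 4.56 FPKM, where its libraries overlapped those of Heph (4.01 ± 0.871 FPKM). In WT it was the third, at 515 ± 440 FPKM (SD, n = 3 each), and its libraries spanned those of Tfrc, Steap3 and Aco1. Steap4 closed the order at 1.36 FPKM in DKO and 1.92 FPKM in WT. The ratio of Tfrc to Slc40a1, an importer against an exporter, was 17.8, 65.3 and 20.8 in DKO 1, 3 and 4, against 0.422, 7.95 and 0.218 in WT 1, 2 and 3. In WT 1 and WT 3 the exporter transcript thus exceeded that of the receptor, and in WT 2 and all DKO libraries the receptor transcript was the higher.

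**Figure D4:**
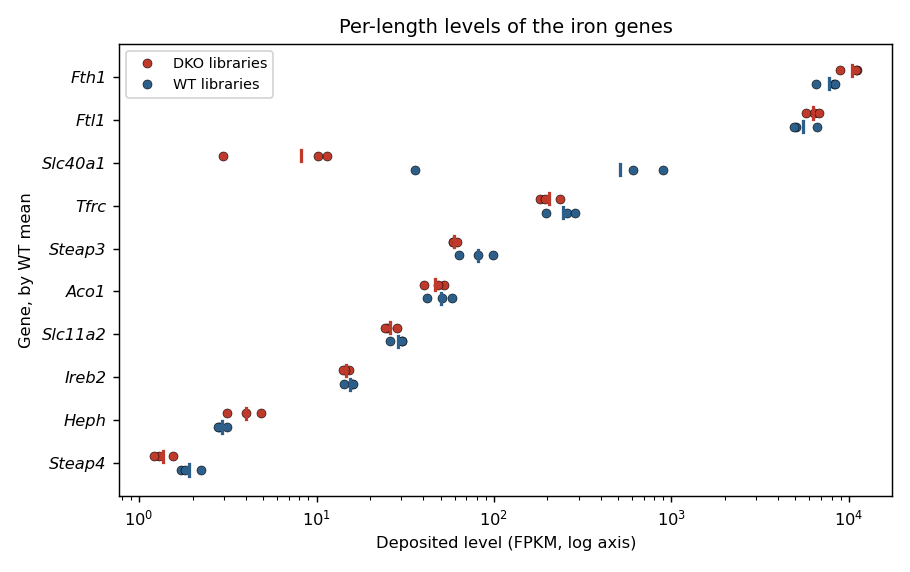
Deposited FPKM of each iron gene on a log axis, genes ordered by WT mean, with DKO libraries (red) above WT libraries (blue) and a bar at each mean. The ferritin genes are the highest in every library, and Slc40a1 is at 8.19 FPKM in DKO and 515 FPKM in WT on average.

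Of 78 further iron genes listed, 76 were in the count tables and 70 were tested. Cybrd1, a plasma membrane ferric reductase, was the one called, and it was higher in DKO. It had 134, 153 and 157 CPM in DKO 1, 3 and 4, against 99.8, 88.9 and 79.3 CPM in WT 1, 2 and 3. The groups stood clear of each other, and the log2 fold change was 0.73 (SE 0.10; edgeR gave an adjusted p of 0.0261). The call ended without DKO 3, DKO 4 or WT 3 (edgeR adjusted p from 0.0713 to 0.119), once Xist status was a covariate (0.0804), and by limma on FPKM without a filter (0.163). Over the 70 tested genes, 39 had a log2 fold change above 0 and 31 below, with a median of 0.02. At an unadjusted p below 0.05 edgeR counted 11 of the 70, against 18.0% of all tested genes.

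A pair of these genes shared the pattern of Slc40a1. Slc39a8, which encodes the zinc, manganese and iron importer ZIP8, had 391, 268 and 281 CPM in DKO 1, 3 and 4, against 1602, 625 and 1202 CPM in WT 1, 2 and 3. Its groups did not overlap, WT 2 was the lowest WT library, and its log2 fold change of -1.87 (SE 0.33) just missed the threshold (edgeR adjusted p = 0.0518, 0.00562 without WT 2 and from 0.0821 to 0.201 without any other library). Ncoa4, the receptor that carries ferritin to the lysosome for iron release, had 151, 121 and 128 CPM in the DKO libraries, against 513, 151 and 445 CPM in the WT libraries. WT 2 was level with DKO 1, so the groups overlapped by a hair, and the log2 fold change of -1.47 (SE 0.39) was not called (edgeR adjusted p = 0.125, 0.00227 without WT 2 and from 0.229 to 0.318 without any other library).

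Among the other genes with the smallest p were Slc22a17, a receptor of lipocalin 2 (log2 fold change -0.47), Rnf217, a ubiquitin ligase that acts on ferroportin in mouse (-0.43), and the mitochondrial iron-sulphur protein Cisd1 (0.31), none of them called (edgeR adjusted p from 0.113 to 0.196). By role, 1 of 11 tested transporters and reductases was called, and 0 of 12 systemic and secreted proteins, 0 of 5 storage and ferritinophagy genes, 0 of 16 haem genes, 0 of 18 mitochondrial iron genes and 0 of 8 iron and oxygen responsive regulators. The haem genes lay between -0.24 and 0.21 on the log2 scale and the regulators between -0.23 and 0.31. Hamp, the gene of the hormone hepcidin that degrades ferroportin, had 0 counts in all 6 libraries, as did Hamp2 and the mitochondrial ferritin gene Ftmt.

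**Figure D5:**
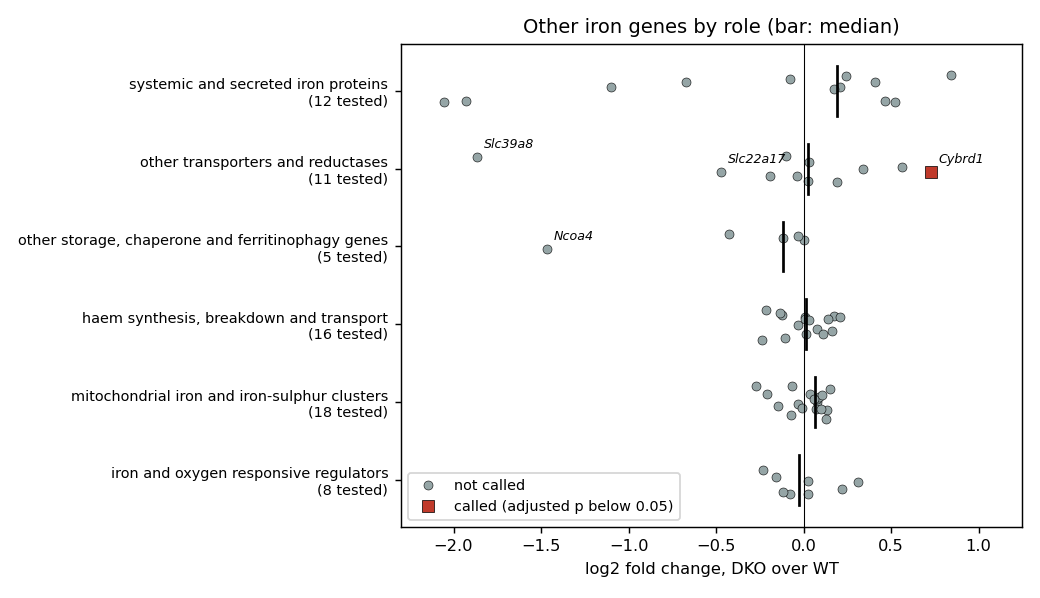
log2 fold change (DKO over WT) of the 70 tested further iron genes, 1 point a gene, in 6 roles with a bar at each median. Cybrd1 (red square, 0.73) is the one called gene, and Slc39a8 (-1.87) and Ncoa4 (-1.47) lie far below 0.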

How the data were processed

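The authors deposited raw counts for each Ensembl gene, as whole numbers, and every entry names a gene. They also deposited FPKM, in the column layout of Cufflinks, per the file headers. Trimmomatic 0.32, Cufflinks 2.2, HTSeq and GRCm38 are named, per the submitters' processing notes, with no role or order. The aligner and the settings for counting were not given in the sources used here. Strand is not marked by the kit.

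Counts went through filterByExpr, TMM scaling and edgeR's quasi-likelihood test (edgeR 4.0.16, R 4.3.3), with no covariate, tested first on simulated data. SE is the log2 fold change over the square root of F. FPKM fits (limma 3.58.1) kept genes at 1 FPKM or more in at least 3 libraries and left out 9 genes with a failed estimate, 0 of them among the 10 iron genes. No libraries were duplicates (chi-square per degree of freedom at least 14.3).

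The 10 genes and all lists were chosen with earlier results of these data known. Named are the 10 genes, Stim1, Stim2, the further iron genes that were called plus the next 6 by p (1 of these is not reported here), and the 5 genes most like Slc40a1. Positions are 1-based, GRCm38. Alternatives were other scalings, filters, DESeq2 1.42.0, FPKM fits, a replicate block, Xist status (above 100 CPM or not) as a covariate, and each library left out.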

Additional observations from a re-analysis of the deposited data

How the results depend on the processing

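Over 18 alternatives, the directions of Slc40a1, Tfrc, Fth1, Ftl1, Slc11a2, Heph, Steap3 and Steap4 held. Aco1 turned to 0.019 without WT 2 (from -0.23 to 0.019 with each library left out) and Ireb2 to 0.0096 with the replicate block. The cause was not tested. Slc40a1 was called without a low-count filter (-5.94), by DESeq2 (-5.93), with the replicate block (-6.95) and without WT 2. In the block fit, a library whose replicate number is absent from the other group adds nothing to the difference. WT 2 is such a library, so the block result is no separate support beside the fit without WT 2. The block fit also left only 1 residual degree of freedom. With each library left out Slc40a1 lay between -6.50 and -5.27, and Steap3 between -0.57 and -0.29, called without WT 2. The same-numbered pairs of libraries had correlated deviations of 0.21 and -0.029, so the numbers were not taken as pairs.

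All calls numbered 153. They were 554 without a low-count filter, 826 by DESeq2, 328 with the replicate block, 71 with the Xist term, 77 by limma on log2(FPKM + 1) or log2(FPKM + 0.1), 11 by limma without a filter and from 21 to 335 with a library left out, the highest without WT 2. Higher calls were 124 and lower ones 211 without WT 2, and 132 and 196 with the block, against 108 and 45 over all libraries. Further iron genes called numbered 1, against 2 with total counts, 4 without a low-count filter, 3 by DESeq2, 3 with the replicate block (Ncoa4, Slc39a8 and Steap1, with Cybrd1 lost at an adjusted p of 0.0937), 0 with the Xist term, 0 by limma without a filter and from 0 to 3 with a library left out. No scaling moved the median of all genes by 0.1.

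Precision was limited by 3 libraries per group and, for Steap4 with 81 to 168 counts per library and Heph with 309 to 464, also by depth. Intervals deposited with FPKM cover 1 library each.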
